A study of Mus musculus with 6 samples.

Results

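The glycogen metabolism genes described here are 9 genes taken by symbol, out of 21769 gene IDs listed in all 6 libraries of a study of 3T3-L1 cells, and all 9 symbols matched a single gene ID. They are Gyg, Gys1, Gbe1 and Ugp2, which build glycogen, Pygl, Pygb and Pygm, which break it down, and Ppp1r3b and Ppp1r3c, which steer the phosphatase that acts on both. 3T3-L1 is an established line of mouse fibroblasts that turns into fat cells when induced. The study sequenced messenger RNA of wild-type 3T3-L1 cells labelled as adipocytes, from 3 libraries given chronic intermittent hypoxia (CIH, repeated spells of low oxygen) and 3 control libraries. Per the labels' protocols both groups had medium with 10% serum, insulin for induction and then 0.1 µM insulin up to day 8. The labels state neither oxygen levels nor cycle times, and they name no separate cultures, so each p-value reflects only how these libraries vary, which may be technical variation. It is 1 cell line in culture, without the blood supply and other cell types of fat tissue.

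Glycogen is a branched glucose store that animal cells fill when glucose and insulin are plentiful. Uridine diphosphate glucose, made by the enzyme that Ugp2 encodes, is the glucose donor. Glycogenin (Gyg) starts the chain on itself, glycogen synthase (Gys1) lengthens it and the branching enzyme (Gbe1) adds branch points. Phosphorylase (Pygl, Pygb and Pygm, named for liver, brain and muscle) releases glucose 1-phosphate. Protein phosphatase 1 (PP1), brought to glycogen by targeting subunits of the Ppp1r3 family, turns synthase on and phosphorylase off. In fat cells glycogen is a small store beside triglyceride, and synthesis responds to insulin. Hypoxia-inducible factor is known from other cultured cells to raise several of these genes, among them Gys1, Gbe1 and Ppp1r3c.

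The deposited unit is FPKM, which divides the fragments of a gene by its length and by the size of the library, so that levels of different genes can be compared within a library. Replicates 1 and 2 of each group are gene tables of about 26200000 and 27400000 fragments in CIH 1 and 2 and of about 25700000 and 28000000 fragments in control 1 and 2, judged from the steps in their values. CIH 3 and control 3 are transcript tables of unknown depth, whose entries were summed per gene, and they are kept apart throughout. White adipocyte markers (10 genes, among them Adipoq and Fabp4) summed to 7197 and 6360 FPKM in CIH 1 and 2 and to 7926 and 8473 FPKM in control 1 and 2, but to 670 FPKM in CIH 3 and 30239 FPKM in control 3. Markers of preadipocytes or fibroblasts (8 genes) summed to 231 and 236 FPKM in CIH 1 and 2 and to 186 and 200.1 FPKM in control 1 and 2, against 3088 FPKM in CIH 3 and 400.1 FPKM in control 3. In replicates 1 and 2, 5 of the 10 adipocyte markers were called lower in CIH by the limma test used below and 5 were not called. By that test 20.9% of all genes tested were lower and 18.2% higher. Cfd (adipsin) was 11.1-fold, Retn (resistin) 8.28-fold and Pparg, the master regulator of fat cell formation, 1.91-fold lower, beside Slc2a4 and Lipe. Of 7 tested preadipocyte markers, 5 were higher, among them Thy1 at 4.16-fold, and Pdgfra and Ly6a were lower. The part of these markers in the members' values was not tested. All 10 adipocyte markers were at least 2-fold lower in CIH 3 than in control 3, and 7 of 7 tested preadipocyte markers at least 2-fold higher. Of all genes tested, 11.8% were at least 2-fold lower in CIH 3 and 21.8% at least 2-fold higher. Of 10 genes known to rise in low oxygen, 8 were tested in replicates 1 and 2 and all 8 were lower in CIH by the same test. Of these 8, 4 were at least 2-fold lower in CIH 3 than in control 3 and 1, Slc2a1, at least 2-fold higher. Mitochondrial genes took 15.5% and 16.3% of the summed FPKM in CIH 1 and 2 and 14.2% and 11.2% in control 1 and 2, against 22.4% in CIH 3 and 43.7% in control 3.

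The promoters of the 3 members with the lowest CIH to control ratio in replicates 1 and 2 that have an entry in the sequence table are printed here. They run from 250 bases before to 50 bases after the RefSeq start, 5′ to 3′ on the gene's strand, from RefSeq on GRCm38.p6. Capitals mark ACGTG or GCGTG on either strand, the core letters that hypoxia-inducible factors bind, so that a reverse match reads CACGT or CACGC.
Ppp1r3c, chr19:36736555-36736854, minus strand: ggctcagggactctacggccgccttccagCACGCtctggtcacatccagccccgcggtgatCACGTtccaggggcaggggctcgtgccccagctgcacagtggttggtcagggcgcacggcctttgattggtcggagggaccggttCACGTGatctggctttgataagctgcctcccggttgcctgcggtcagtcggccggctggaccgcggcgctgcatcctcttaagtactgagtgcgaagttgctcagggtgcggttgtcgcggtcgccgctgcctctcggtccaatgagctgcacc
Pygl, chr12:70227634-70227933, minus strand: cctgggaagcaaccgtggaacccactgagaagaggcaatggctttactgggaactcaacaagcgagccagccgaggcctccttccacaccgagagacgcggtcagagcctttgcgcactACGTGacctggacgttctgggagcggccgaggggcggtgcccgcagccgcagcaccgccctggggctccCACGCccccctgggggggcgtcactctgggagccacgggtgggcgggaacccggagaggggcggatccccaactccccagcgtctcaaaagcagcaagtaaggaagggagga
Pygb, chr2:150786546-150786845, plus strand: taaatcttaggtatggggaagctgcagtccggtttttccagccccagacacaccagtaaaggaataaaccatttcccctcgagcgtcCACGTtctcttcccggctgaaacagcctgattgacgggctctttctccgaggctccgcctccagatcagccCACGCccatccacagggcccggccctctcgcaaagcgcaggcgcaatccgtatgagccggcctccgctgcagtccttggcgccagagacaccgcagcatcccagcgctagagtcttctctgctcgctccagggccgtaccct
The Ppp1r3c window held 3 matches to ACGTG and 1 to GCGTG, and 2 of the ACGTG matches were both strands of a single CACGTG, which overlaps them. Each phosphorylase window held 1 match to ACGTG and 1 to GCGTG. Of the 8 members with an entry, 6 held ACGTG or GCGTG in at least 1 window, while the windows of Gys1 and Gbe1 held neither. Counted by window, 6 of the members' 9 windows held ACGTG or GCGTG. Among all 32851 windows of the same length, 43.8% held ACGTG or GCGTG, 19.6% ACGTG and 7.15% CACGTG. These matches describe letters in the windows only. Ppp1r3b, whose CIH to control ratio was lower than that of Pygb, had no entry.

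Replicates 1 and 2 asked which of these genes differ between CIH and control cells. Of the 9 members, 7 averaged 1 FPKM or more across all libraries and were tested with limma on log2(FPKM + 1), with p-values adjusted over all 10976 genes tested. All 7 were lower in CIH and 0 were higher, where 20.9% of all genes tested were lower, 18.2% higher and 39.1% called in either direction (adjusted p under 0.05). With libraries scaled by their totals, 28.7% of all genes were lower and 12.5% higher, and the same count of 7 members was lower. Their median log2 change was −1.20, beside −0.01 for all genes tested. Ppp1r3b lay under 1 FPKM in CIH 1 and 2 and passed the filter through the other libraries, where it is higher. The falls ranged from 1.53-fold for Gyg to 9.99-fold for Ppp1r3c in FPKM, and the 2 CIH libraries lay below the 2 controls for each of the 7. The share of all genes with such separation was not counted. A fit of all 6 libraries that also held the kind of table called 0 of the 7 members and 0.574% of all genes at an adjusted p under 0.05 (limma). In that fit 6 members were at an unadjusted p under 0.05. With a replicate block in place of the kind of table it also called 0 (limma, 5 at an unadjusted p under 0.05). The share of all genes at that unadjusted level was not counted for either fit, nor was the share called with the replicate block. Pygl and Pygm were under 1 FPKM in all 6 libraries and were not tested. Fewer cells of a type and less RNA per cell cannot be told apart in bulk libraries.

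**Figure D1:**
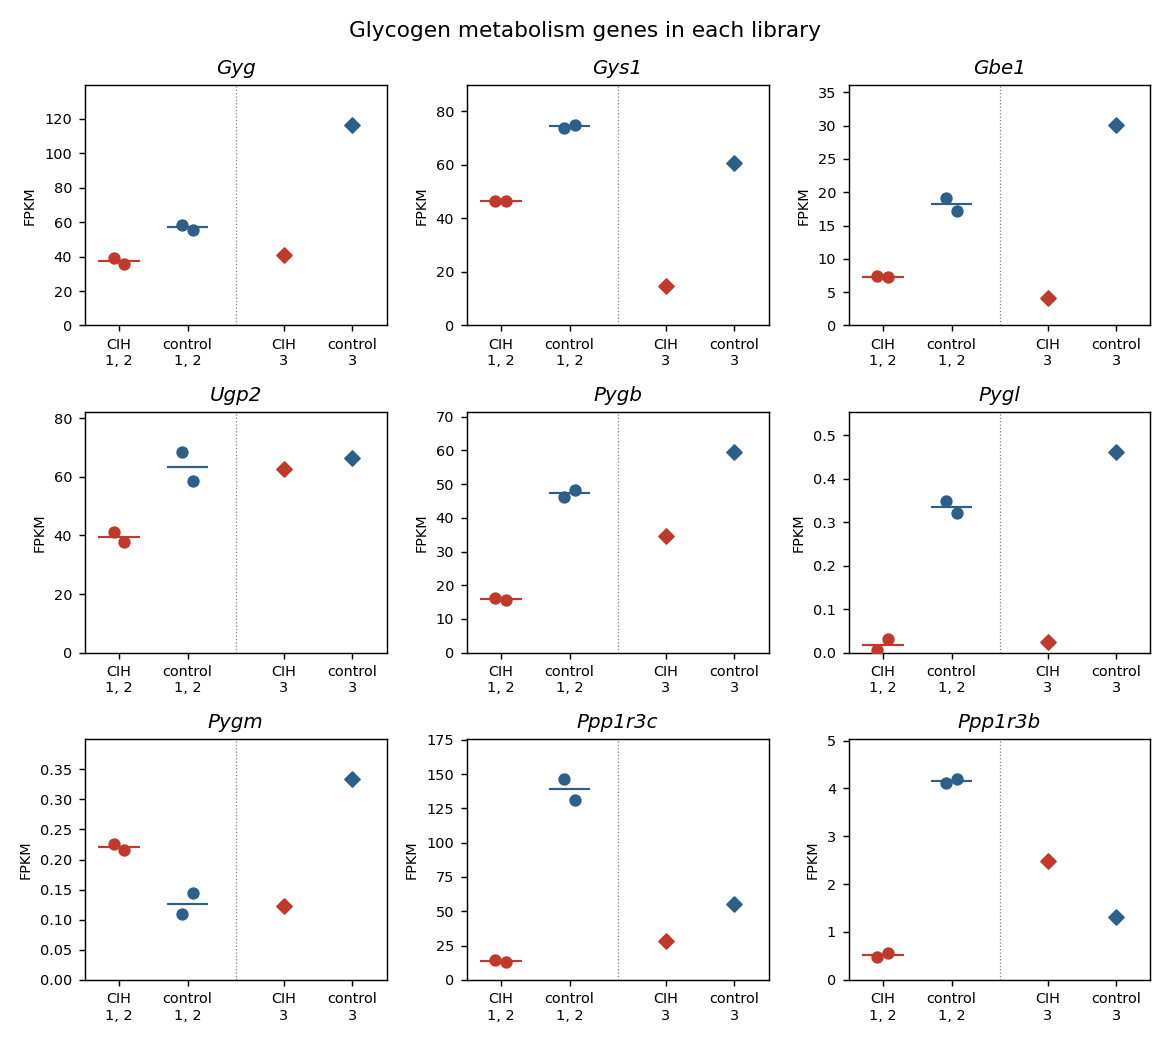
FPKM of the 9 glycogen genes in each library, with CIH in red and control in blue, circles for replicates 1 and 2, diamonds for replicate 3 and a line at the mean of replicates 1 and 2; each panel has its own axis from 0. The CIH circles lie below the control circles in every panel but Pygm, and CIH 3 lies above control 3 for Ppp1r3b alone.

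Among the genes that build glycogen, Gyg (chromosome 3, 20122084 to 20155317 on GRCm38, minus strand) encodes the primer protein of the chain. Gyg had 39.1 and 35.4 FPKM in CIH 1 and 2, against 58.1 and 55.7 FPKM in control 1 and 2. It fell 1.53-fold in FPKM (37.3 ± 2.60 in CIH and 56.9 ± 1.67 in control, SD, n = 2 each; log2 change −0.60, SE 0.08, limma adjusted p = 0.00607). The 2 groups did not overlap.

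Gys1 (chromosome 7, 45434844 to 45456619, plus strand) encodes the synthase of muscle and most other tissues outside the liver. It had 46.5 and 46.6 FPKM in CIH 1 and 2, against 73.8 and 74.9 FPKM in control 1 and 2. The libraries of each group lay within 2 FPKM of each other, and Gys1 fell 1.60-fold (log2 change −0.66, SE 0.06, limma adjusted p = 0.00283). Its exons overlap those of Ruvbl2 on the other strand by 310 bases, and the labels do not say whether the counting used strand.

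Gbe1 (chromosome 16, 70313949 to 70569716, plus strand) encodes the branching enzyme, the only enzyme known to make the branch points. Its expression was 7.37 and 7.24 FPKM in CIH 1 and 2, against 19.1 and 17.2 FPKM in control 1 and 2. That is a 2.49-fold fall, with both CIH values under both control values (log2 change −1.20, SE 0.08, limma adjusted p = 0.00137). Within a library the ratio of Gbe1 to Gys1 was 0.159 and 0.155 in CIH 1 and 2 and 0.259 and 0.230 in control 1 and 2, so the branching enzyme was lower relative to synthase as well.

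Ugp2 (chromosome 11, 21321138 to 21371201, minus strand) makes the glucose donor, which also serves other sugar pathways. Ugp2 had 41.0 and 37.6 FPKM in CIH 1 and 2, against 68.4 and 58.6 FPKM in control 1 and 2. It fell 1.62-fold without overlap between the groups (log2 change −0.68, SE 0.10, limma adjusted p = 0.00826), and its adjusted p was 0.0546 when genes of low level were not filtered out. A stretch of 78 exon bases overlaps the antisense gene Gm12043.

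Of the phosphorylases, Pygb (chromosome 2, 150786735 to 150831758, plus strand) carried almost the whole signal. It gave 98.6% and 98.4% of the summed FPKM of the 3 phosphorylase genes in CIH 1 and 2, and 99.0% in both control 1 and control 2. Pygb had 16.1 and 15.6 FPKM in CIH 1 and 2, against 46.2 and 48.3 FPKM in control 1 and 2. All values of CIH were below those of control, a fall of 2.98-fold (log2 change −1.52, SE 0.07, limma adjusted p = 0.00067).

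Pygl (chromosome 12, 70190811 to 70231488, minus strand), the liver type of phosphorylase, was barely detected. It had 0.00554 and 0.0317 FPKM in CIH 1 and 2, against 0.349 and 0.321 FPKM in control 1 and 2, which correspond to 1 and 6 fragments in CIH and to 62 fragments in each control library. Per fragment sequenced, Pygl was 17.7-fold lower in CIH (95% exact binomial interval 8.33 to 44.9, for counting error only). It was not in the tested set, and with no filter on low values limma gave adjusted p = 0.0200.

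Pygm (chromosome 19, 6384399 to 6398459, plus strand), the muscle type, had 0.226 and 0.215 FPKM in CIH 1 and 2, against 0.109 and 0.144 FPKM in control 1 and 2. These are 19 and 19 fragments in CIH and 9 and 13 in control, a ratio of CIH to control of 1.73 (95% exact binomial interval 0.998 to 3.07). With no filter limma gave adjusted p = 0.0619, so a difference was not detectable at this depth. Of 8 skeletal muscle markers, Des alone reached the tested level, at 7.56 and 7.32 FPKM in CIH 1 and 2 and 7.94 and 8.17 FPKM in control 1 and 2, while Myh4 was at 0 in all 6 libraries and Ckm and Myh1 at 0 in these 4.

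The PP1 targeting subunits had the largest differences among the tested members. Ppp1r3c (chromosome 19, 36731731 to 36736653, minus strand), also called protein targeting to glycogen, binds PP1, synthase and phosphorylase together. It had 14.6 and 13.2 FPKM in CIH 1 and 2, against 146.2 and 131.5 FPKM in control 1 and 2. Both controls exceeded both CIH libraries, and Ppp1r3c fell 9.99-fold (13.9 ± 0.994 FPKM in CIH and 138.9 ± 10.4 FPKM in control, SD, n = 2 each; log2 change −3.23, SE 0.09, limma adjusted p = 0.000392).

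Ppp1r3b (chromosome 8, 35375739 to 35388139, plus strand) encodes the targeting subunit best known from liver. Its level was 0.474 and 0.569 FPKM in CIH 1 and 2, against 4.12 and 4.19 FPKM in control 1 and 2. In fragments these were 77 and 97 in CIH and 659 and 729 in control, and Ppp1r3b fell 7.97-fold in FPKM (log2 change −1.76, SE 0.07, limma adjusted p = 0.000522). The log2(FPKM + 1) scale makes that 3.39-fold, since the added 1 outweighs the CIH level. Hepatocyte markers (7 genes) summed to at most 0.498 FPKM in any library.

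The order of the members changed at the top. In control 1 and 2, Ppp1r3c had the highest level, followed by Gys1, Ugp2, Gyg, Pygb, Gbe1, Ppp1r3b, Pygl and Pygm, and no neighbours in that order overlapped between libraries. In CIH 1 and 2 the order was Gys1, Ugp2, Gyg, Pygb, Ppp1r3c, Gbe1, Ppp1r3b, Pygm and Pygl, with Ugp2 and Gyg overlapping. Ppp1r3c stood at rank 5 there and, relative to Gys1 in the same library, it was 0.314 and 0.283 in CIH 1 and 2 and 1.98 and 1.76 in control 1 and 2. In the replicate 3 pair that ratio lay the other way, at 1.89 in CIH 3 and 0.912 in control 3, and Ppp1r3c stood at rank 4 in CIH 3 and rank 5 in control 3.

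Summed over the 7 Ppp1r3 genes, targeting subunits came to 29.0 and 26.9 FPKM in CIH 1 and 2, against 168.6 and 155.2 FPKM in control 1 and 2. Ppp1r3c supplied 50.3% and 49.1% of that sum in CIH 1 and 2, against 86.7% and 84.7% in control 1 and 2. Ppp1r3d, a widely expressed subunit of the same family, supplied 41.1% and 42.1% in CIH, against 9.72% and 11.2% in control. Ppp1r3d itself was lower in CIH, at 11.9 and 11.3 FPKM against 16.4 and 17.4 FPKM in control (log2 change −0.50, SE 0.07, limma adjusted p = 0.00805). The replicate 3 pair did not show this shift towards Ppp1r3d, which supplied 19.7% in CIH 3 and 22.8% in control 3. Ppp1r3c supplied 65.1% in CIH 3 and 71.6% in control 3.

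The ratio of Gys1 to Pygb within a library does not depend on how libraries are scaled. It was 2.88 and 2.98 in CIH 1 and 2, against 1.60 and 1.55 in control 1 and 2, because phosphorylase was reduced more than synthase. In the replicate 3 pair it lay the other way, at 0.430 in CIH 3 and 1.02 in control 3. Gys1 relative to Gyg was 1.19 and 1.32 in CIH 1 and 2 and 1.27 and 1.34 in control 1 and 2, so these ranges overlapped. With 2 libraries a group, no exact permutation test of such a ratio can pass 0.05, and none was run.

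**Figure D2:**
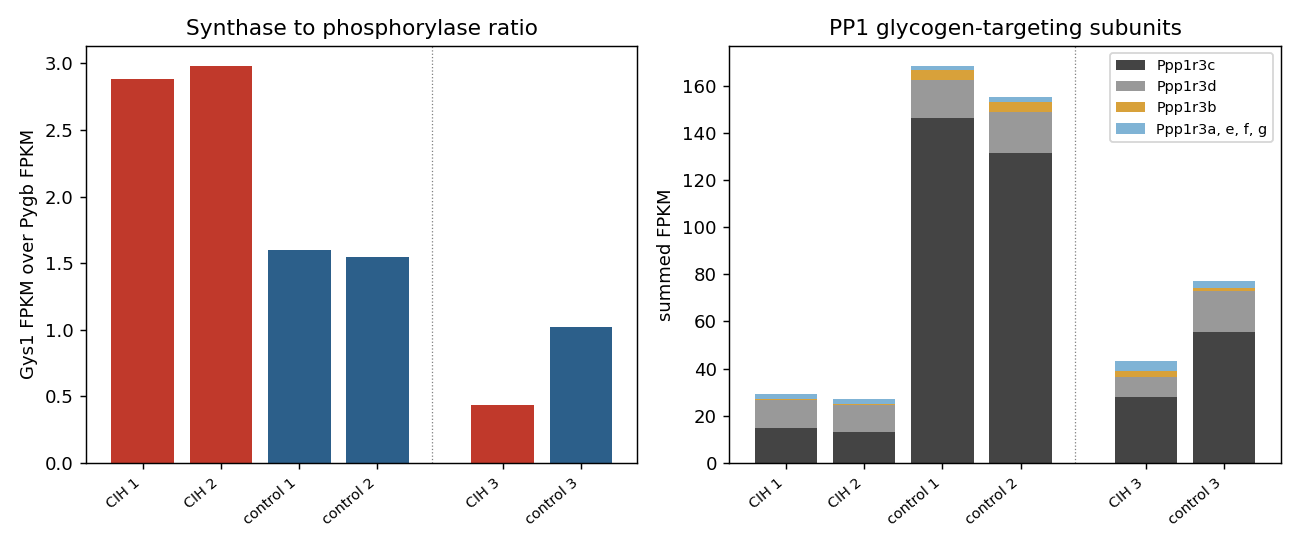
Left, Gys1 FPKM divided by Pygb FPKM in each library; right, FPKM of the PP1 glycogen-targeting subunits stacked by gene, with CIH before control and the replicate 3 pair right of the dotted line. The ratio is 2.88 and 2.98 in CIH 1 and 2 against 1.60 and 1.55 in control 1 and 2, and the targeting subunits sum to 29.0 and 26.9 FPKM in CIH 1 and 2 against 168.6 and 155.2 FPKM in control 1 and 2.

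The replicate 3 pair has 1 library a group and therefore no test. Of the 7 tested members, 3 were at least 2-fold lower in CIH 3 and 0 at least 2-fold higher, where 11.8% of all genes tested were at least 2-fold lower and 21.8% at least 2-fold higher on the log2(FPKM + 1) scale. The median log2 change of the 7 was −0.95, beside 0.26 for all genes. When libraries were scaled by their totals these medians became −0.34 and 0.83. With that scaling 2 members, Gbe1 and Gys1, were at least 2-fold lower, and the share of all genes was not counted. Scaling by the median of ratios instead gave medians of −1.24 for the 7 and −0.0005 for all genes. Under it the log2 changes were −2.85 for Gbe1, −2.24 for Gys1, −1.78 for Gyg, −1.24 for Ppp1r3c and −1.05 for Pygb. Those of Ugp2 and Ppp1r3b were −0.37 and 0.40. The adipocyte and preadipocyte marker sums and the mitochondrial share given above moved with this pair, and their part in these values was not tested.

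The enzymes of chain growth were far apart in this pair. Gbe1 had 4.16 FPKM in CIH 3 and 30.1 FPKM in control 3, Gys1 had 14.9 FPKM in CIH 3 and 60.7 FPKM in control 3, and Gyg had 40.7 FPKM in CIH 3 and 116.4 FPKM in control 3. These are 7.23-fold, 4.08-fold and 2.86-fold lower, each further apart than in replicates 1 and 2. On the log2(FPKM + 1) scale Gbe1, Gys1 and Gyg changed by −2.59, −1.96 and −1.49, which became −2.03, −1.35 and −0.87 with scaling by totals. Gbe1 had 4 transcript entries, and the 2 largest were 2.23 and 1.15 FPKM in CIH 3 against 14.1 and 14.9 FPKM in control 3, so both were low together. Of the 3 entries of Gyg, 1 held most of the signal, with 37.0 FPKM in CIH 3 and 110.3 FPKM in control 3. Of the 2 entries of Gys1, 1 likewise held 14.3 FPKM in CIH 3 and 58.8 FPKM in control 3.

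Pygb, Ppp1r3c and Ugp2 were closer in this pair. Pygb had 34.6 FPKM in CIH 3 and 59.5 FPKM in control 3, a 1.72-fold difference, and Ppp1r3c had 28.1 FPKM in CIH 3 and 55.4 FPKM in control 3, a 1.97-fold difference against 9.99-fold in replicates 1 and 2. Pygl was not closer, with 0.0250 FPKM in CIH 3 and 0.461 FPKM in control 3. That is an 18.4-fold difference in FPKM at a very low level, against 18.0-fold in replicates 1 and 2. Ugp2 was nearly level, with 62.7 FPKM in CIH 3 and 66.6 FPKM in control 3, and its log2 change of −0.08 became 0.53 with scaling by totals. For Pygb the log2 change of −0.77 became −0.15, and for Ppp1r3c −0.95 became −0.34. The direction for the other 8 members was the same under each scaling tried.

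Ppp1r3b and Pygm went the other way from replicates 1 and 2. Ppp1r3b had 2.48 FPKM in CIH 3 and 1.32 FPKM in control 3, so that its log2 change was 0.58 in this pair and −1.76 in replicates 1 and 2. Pygm had 0.123 FPKM in CIH 3 and 0.333 FPKM in control 3, from 2 transcript entries of which a different one was above 0 in each library. Whether these differences between the kinds of table exceed library error was not tested.

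**Figure D3:**
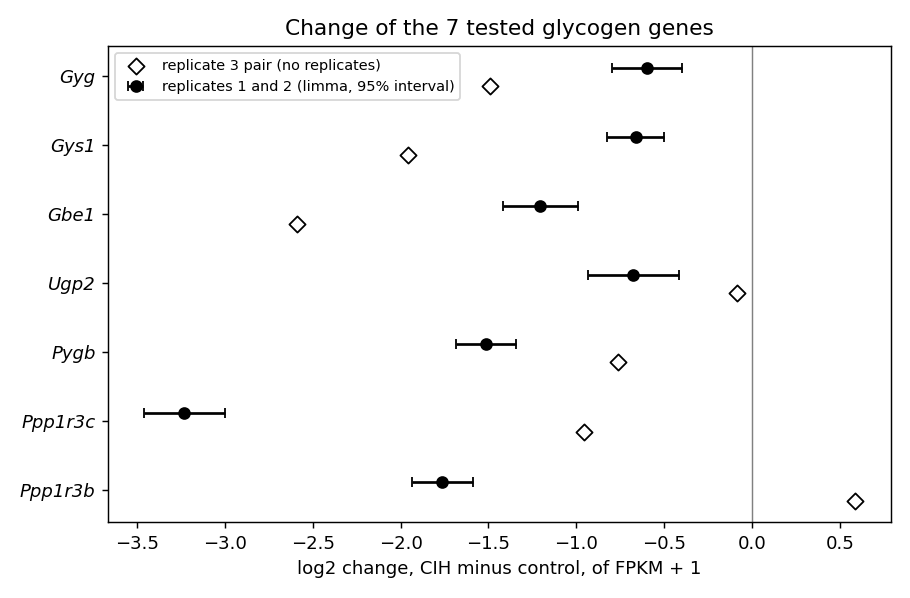
Log2 change (CIH minus control, FPKM + 1) of the 7 tested members, with filled circles and 95% limma intervals for replicates 1 and 2 and open diamonds for the replicate 3 pair, which has no error. All 7 circles lie below 0, from −3.23 for Ppp1r3c to −0.60 for Gyg, and the diamonds run from −2.59 for Gbe1 to 0.58 for Ppp1r3b.

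The other genes of glycogen handling were taken from 7 lists of 34 genes, of which 29 were tested. In replicates 1 and 2, 10 were lower in CIH, 2 were higher and 17 were not called, with a median log2 change of −0.20. The 12 calls are 41.4% of the 29, near the 39.1% of all genes tested. With scaling by totals 15 were lower and 1 was higher. With no filter on low values, 6 of the 12 lost their call, namely Ppp1ca (adjusted p = 0.118), Akt2 (0.0972), Ppp1r3f (0.125), Epm2a (0.0565), Gaa (0.0579) and Hk1 (0.0553), all by limma. The 17 lay between −0.32 for Ppp1cb and 0.23 for Akt1. Of these calls, 5 came from the 6 genes that bring in glucose or handle glucose 6-phosphate, with 4 lower and 1 higher.

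In that list, Slc2a4, the insulin-responsive glucose transporter, had 24.02 and 20.8 FPKM in CIH 1 and 2, against 82.7 and 87.6 FPKM in control 1 and 2 (3.80-fold lower; limma adjusted p = 0.000746). Slc2a1, the basal transporter, was 4.58-fold lower (limma adjusted p = 0.000522). Hk2, the insulin-regulated hexokinase, had 36.5 and 36.7 FPKM in CIH 1 and 2, against 82.3 and 90.9 FPKM in control 1 and 2 (2.36-fold lower; limma adjusted p = 0.00122). Hk1, the housekeeping hexokinase, rose to 11.4 and 11.3 FPKM in CIH 1 and 2, against 7.51 and 8.53 FPKM in control 1 and 2 (limma adjusted p = 0.0161). Slc37a4, which carries glucose 6-phosphate into the endoplasmic reticulum, was 1.58-fold lower (limma adjusted p = 0.00563). In the replicate 3 pair Hk1 and Hk2 differed in the same directions, with Hk1 at 29.2 FPKM in CIH 3 and 9.93 FPKM in control 3 and Hk2 at 6.13 FPKM in CIH 3 and 62.6 FPKM in control 3. Slc2a4 was lower there too, at 0.497 FPKM in CIH 3 and 54.1 FPKM in control 3. Slc2a1 lay the other way, at 38.4 FPKM in CIH 3 and 16.1 FPKM in control 3, and so did Slc37a4, at 5.72 FPKM in CIH 3 and 5.08 FPKM in control 3.

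Of the other 6 enzymes of synthesis and breakdown, 2 were lower and 4 were not called. Gys2, the liver type of synthase, had 1.28 and 1.47 FPKM in CIH 1 and 2, against 2.54 and 2.70 FPKM in control 1 and 2 (limma adjusted p = 0.00506), and was listed at 0 in CIH 3 and at 3.73 FPKM in control 3. Gaa, the lysosomal enzyme that degrades glycogen, was 1.35-fold lower (limma adjusted p = 0.0158). Pgm1, which interconverts glucose 1-phosphate and glucose 6-phosphate, was not called, at 91.2 and 80.2 FPKM in CIH 1 and 2 and 104.6 and 103.3 FPKM in control 1 and 2.

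Among the regulators outside the members, none of the 5 phosphorylase kinase subunits, which switch phosphorylase on, was called by limma, with log2 changes from −0.30 for Phkb to 0.11 for Phkg2 and 3 at an unadjusted p under 0.05. The share of all genes at that unadjusted level was not counted. With no filter on low values Phka2 was called lower (log2 change −0.20, limma adjusted p = 0.0463). Among PP1 catalytic subunits, Ppp1ca rose to 307 and 265 FPKM in CIH 1 and 2, against 222 and 220.5 FPKM in control 1 and 2 (limma adjusted p = 0.0489), and Ppp1cb and Ppp1cc were not called. Gsk3a and Gsk3b, kinases that hold synthase off, had log2 changes of −0.05 and 0.15 and were not called. Akt2, the kinase that carries the insulin signal towards synthase in fat cells, was 1.30-fold lower (limma adjusted p = 0.0299). Epm2a, which encodes the glycogen phosphatase laforin, had 0.768 and 0.599 FPKM in CIH 1 and 2, against 2.01 and 1.57 FPKM in control 1 and 2 (limma adjusted p = 0.00698). Ppp1r3f, another targeting subunit, was 1.72-fold lower at under 1 FPKM in these 4 libraries (limma adjusted p = 0.0351).

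**Figure D4:**
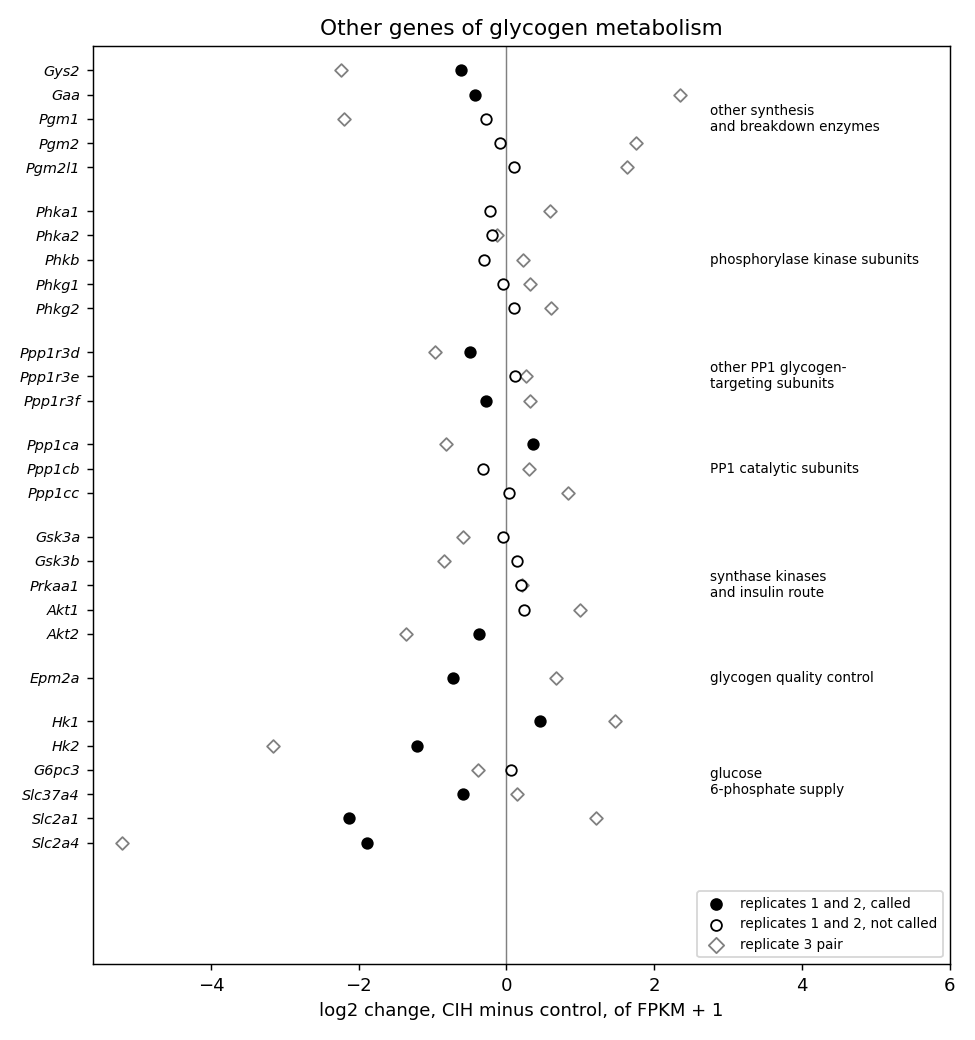
Log2 change (CIH minus control, FPKM + 1) of 28 of the 29 tested genes of the other lists, with circles for replicates 1 and 2 (filled where limma called the gene) and grey diamonds for the replicate 3 pair. The filled circles are 10 lower and 2 higher genes, led by Slc2a1 at −2.14 and Slc2a4 at −1.88, and diamonds often lie on the other side of 0.

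Ppp1r3c had the largest change of the members, and the genes closest to it over the 6 libraries, by Euclidean distance of log2 values centred within each kind of table, were Cyb561, Itpka and Ankrd37 (distances 0.367, 0.475 and 0.552, among 10975 genes compared). The CIH and control libraries set this distance, and it is a description only. Cyb561 had 0.241 and 0.239 FPKM in CIH 1 and 2, against 8.33 and 7.95 FPKM in control 1 and 2. Itpka had 1.79 and 1.60 FPKM in CIH 1 and 2, against 29.6 and 34.8 FPKM in control 1 and 2. Ankrd37, known as a target of hypoxia-inducible factor, had 0.547 and 0.426 FPKM in CIH 1 and 2, against 10.4 and 9.33 FPKM in control 1 and 2. In the replicate 3 pair their log2 changes were −0.97, −0.89 and −0.36, beside −0.95 for Ppp1r3c.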

How the data were processed

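All values were deposited by the authors as FPKM, a unit read from the values, since the file headers give only sample names. For the transcript tables it is an inference, because their entries carry no transcript names and no steps were found. The submitters' processing notes list GRCm38, featureCounts 1.5.0-p3 and DESeq 1.8.3 without their roles. They name no aligner. In the 4 gene tables, FPKM times exon length lay within 0.05 of a whole fragment for 98.4% to 98.6% of genes under 50 fragments, which gave the depths. Symbols, coordinates and exon lengths came from GENCODE mouse release 21 (GRCm38).

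Repeated IDs of CIH 3 and control 3 were summed. Genes in all 6 files with a mean of at least 1 FPKM were tested on log2(FPKM + 1) with limma 3.58.1 in R 4.3.3, using empirical Bayes moderation with a trend and Benjamini-Hochberg adjustment, CIH 1 and 2 against control 1 and 2, and called at an adjusted p under 0.05. Of the 10976 genes, 1152 had a mean under 1 FPKM in these 4 libraries and 75 were at 0 there. A fold in FPKM is a ratio of group means, and log2 changes understate low genes. The fit was tested on simulated data. Intervals cover counting error only. Named genes were all members, the called genes of the other lists, and the 3 genes nearest to the tested member with the largest log2 change. Pgm1, Phka2 and the genes at the ends of a range were named after their values were seen. The values of 1 gene of the other lists are not reported here. Alternatives were other pseudocounts, scalings and filters, a replicate block, leaving out each library and fits of all 6 libraries. The members and lists were chosen with earlier results of these data known. Python 3.11.15 made tables and figures.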

Additional observations from a re-analysis of the deposited data

Results flagged for a closer look

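Among the 9 members and the 12 called genes of the other lists, in 8 genes both CIH libraries of replicates 1 and 2 lay on one side of both controls and CIH 3 lay on the other side of control 3. Genes of the other lists that were not called were not considered here. The share of all genes tested that met the same rule was not counted. The difference between the kinds of table was not tested for any of the 8. Among the members, the log2 change was 0.58 in the replicate 3 pair and −1.76 in replicates 1 and 2 for Ppp1r3b. For Pygm it was −0.25 in the replicate 3 pair and 0.12 in replicates 1 and 2, at levels under 1 FPKM throughout. Among the other genes, Gaa gave 2.35 in the replicate 3 pair (162 FPKM in CIH 3 and 30.9 FPKM in control 3) and −0.42 in replicates 1 and 2. Slc2a1 gave 1.21 in the replicate 3 pair and −2.14 in replicates 1 and 2, and Epm2a 0.67 in that pair and −0.72 in those replicates. Ppp1r3f gave 0.32 in the replicate 3 pair and −0.28 in replicates 1 and 2, and Slc37a4 0.14 in that pair and −0.59 in those replicates. Ppp1ca gave −0.82 in the replicate 3 pair and 0.36 in replicates 1 and 2.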

How the results depend on the processing

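The 7 members called lower in replicates 1 and 2 were also 7 with other pseudocounts and scalings, the filter on the gene tables alone, no filter and no trend. Without a filter the 7 included Pygl and left out Ugp2 (adjusted p = 0.0546). In the fits of all 6 libraries limma called 0 members, both with the group alone (4 at an unadjusted p under 0.05) and with the kind of table added as a term (6 at an unadjusted p under 0.05). Those fits called 0 of the other pathway genes too (3 and 6 at an unadjusted p under 0.05). Of all 10976 genes tested, the fit with the group alone called 0 by limma, and 490 were at an unadjusted p under 0.05. With the kind of table as a term, 0.574% of all genes were called. Why these fits called 0 members was not tested. The count of the other pathway genes, 12, was 7 with no filter on low values and 7 to 11 when a library was left out, with 7 without CIH 2. With a replicate block on replicates 1 and 2, 7 members and 9 other pathway genes were called. That fit called 3332 of all 10976 genes tested. Deviations of same-numbered libraries in replicates 1 and 2 correlated at −0.18. With the numbers crossed, an alternative chosen after seeing the data, 7 members and 12 other pathway genes were called. Over all 6 libraries the same-numbered deviations correlated at 0.529, 0.587 and 0.581, where the numbers also part the transcript tables from the gene tables. A replicate block over all 6 libraries, also chosen after seeing the data, called 0 members and 0 other pathway genes (limma, 5 and 4 at an unadjusted p under 0.05). For that fit the shares of all genes were not counted. Scaling by totals called 16 other pathway genes, 15 lower and 1 higher. Scaling by totals moved the median log2 change of all genes to −0.11 in replicates 1 and 2 and to 0.83 in the replicate 3 pair. Depth limits Pygl and Pygm, with at most 62 fragments in a library.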
